A study of Mus musculus with 81 samples.

Results

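Large endogenous clones were the T-cell receptor β (TCRβ) rearrangements that each held at least 0.1% of the endogenous templates of a tumor, and 1518 of the 28317 endogenous rearrangements listed for 15 tumors met that rule. A template is 1 rearranged gene copy as estimated by the sequencing assay, and a rearrangement is the 87-base nucleotide sequence that spans the junction. Endogenous templates were in-frame templates without a stop codon, counted after removal of 2 receptor sequences: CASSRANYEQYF, the TCRβ of the transferred OT-1 cells, and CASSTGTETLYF, which every tumor held. Neither is among the clones described here. The clones were chosen by their measured tumor share, so their sizes are given as a description, while blood, gene segments and sharing between mice did not enter the choice.

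A TCRβ chain is assembled in the thymus by joining a V, a D and a J segment, with bases trimmed and added at random at the joints. The joint encodes the third complementarity-determining region (CDR3), the loop that lies over the peptide, and its nucleotide sequence serves as a tag of 1 clone and its progeny. A T cell that meets its antigen divides, so an expanded clone can be followed from tissue to blood by its tag. A CDR3 made with few added bases arises more often and is more often met in several individuals, whereas the same protein sequence can also be reached by different nucleotide sequences.

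All mice were Pep Boy animals, whose leukocytes carry CD45.1, with a subcutaneous flank tumor of EG7.OVA, an ovalbumin-expressing derivative of the mouse T-cell lymphoma EL4. Each received 1e+06 naive OT-1 cells, CD8+ T cells specific for an ovalbumin peptide, and intravenous red cells on days 0 and 3. The mRBC-CTRL arm received 1e+09 unmodified mouse red cells. The 2.5E8 and 1E9 arms received 2.5e+08 or 1e+09 mouse red cells carrying an ovalbumin peptide bound to MHC class I, 4-1BBL and IL-12. There were 5 mice in each arm. Genomic DNA came from day 0 blood, drawn once OT-1 cells had been given but ahead of any red cells, and from tumor and blood at day 7. As models, these mice held a transferred T-cell clone beside their own repertoire, and the tumor DNA came from part of the cell suspension of a tumor that is itself of the T lineage.

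Depth differed between the arms. Endogenous tumor templates ranged from 11484 to 23605 in mRBC-CTRL, from 2589 to 13790 in 2.5E8 and from 832 to 4241 in 1E9, so that 0.1% was 11.5 to 23.6, 2.59 to 13.8 and 0.832 to 4.24 templates. Endogenous templates made up 15.3–38.9%, 19.4–75.3% and 12.7–32.0% of in-frame tumor templates in the same order of arms. The tumor of 1E9 mouse 2 stood apart: at 832 templates a single template was above 0.1%, all of its 380 rearrangements were members, and 1138 members remained without it. It also shared sequences with 1E9 mouse 1. Of the 14 nucleotide rearrangements that were members in 2 tumors, 9 joined these mice, and 7 of the 10 largest clones of 1E9 mouse 1 were present in the tumor of 1E9 mouse 2 at 3 templates or fewer. Of the 380 members of 1E9 mouse 2, 11 were also in the day 7 blood of 1E9 mouse 1. Over the 208 other ordered pairs of tumors, 0 to 5 members of one were found in the other (median 0). Of the 10 largest clones of one, up to 3 were found in the other, with at least 1 in 19 of these pairs. The part of the overlap between 1E9 mice 1 and 2 in the results was not tested. The main comparisons that include the tumor of 1E9 mouse 2 are given with and without it. No day 7 blood of mRBC-CTRL mouse 1 and no day 0 blood of 1E9 mouse 1 was analysed here, which left 13 mice with both.

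The sequences of the clones that led the blood or the tumors show how they were built. Each line gives CDR3 nucleotides 5′ to 3′ from the conserved cysteine codon to the end of the read, 1 codon before the CDR3 ends, and capitals mark the bases between the V and the J part (D segment and added bases). The first 4 lines are the clones that led their own tumor and used TCRBV19 (Trbv19 on chromosome 6, also called Tcrb-V6). The next 3 led their tumor and used TCRBJ01-05, as did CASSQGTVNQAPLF of 1E9 mouse 3, which is not shown.
TCRBV19 with TCRBJ02-07, 2.5E8 mouse 2: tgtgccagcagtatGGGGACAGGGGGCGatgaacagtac
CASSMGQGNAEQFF, 2.5E8 mouse 1: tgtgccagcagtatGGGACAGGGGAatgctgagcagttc
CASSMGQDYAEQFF, 1E9 mouse 5: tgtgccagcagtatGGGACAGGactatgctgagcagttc
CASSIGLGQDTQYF, 2.5E8 mouse 5: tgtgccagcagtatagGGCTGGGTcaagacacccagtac
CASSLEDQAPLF, mRBC-CTRL mouse 2: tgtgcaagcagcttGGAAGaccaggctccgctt
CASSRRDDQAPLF, mRBC-CTRL mouse 1: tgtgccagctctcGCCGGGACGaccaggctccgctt
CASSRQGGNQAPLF, 2.5E8 mouse 4: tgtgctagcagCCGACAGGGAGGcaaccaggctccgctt

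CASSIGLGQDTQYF was a member in 5 mice, more than any other CDR3, by 5 different nucleotide sequences, of which 2 also occurred in another tumor below 0.1%. Another 3 are shown because they differ from that of 2.5E8 mouse 5 and from each other only within or beside the junction, and all used TCRBV19 and TCRBJ02-05.
mRBC-CTRL mouse 5: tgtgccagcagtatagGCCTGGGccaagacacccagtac
2.5E8 mouse 2: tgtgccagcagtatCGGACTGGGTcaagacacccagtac
2.5E8 mouse 3: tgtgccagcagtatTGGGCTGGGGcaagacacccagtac

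With this CDR3, the clone of 2.5E8 mouse 5 was the largest endogenous clone of its tumor (9.90%). The 3 other sequences shown held 0.650% in 2.5E8 mouse 3, 0.550% in mRBC-CTRL mouse 5 and 0.190% in 2.5E8 mouse 2. No tumor of the 1E9 arm had it as a member.

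The number of large clones ranged widely within each arm. There were 76, 40, 70, 92 and 76 members in the mRBC-CTRL tumors (mean 70.8 ± 19.1, SD, n = 5). The 2.5E8 tumors had 74, 52, 77, 78 and 129 (82 ± 28.3, SD, n = 5). The 1E9 tumors had 139, 380, 63, 83 and 89 (150.8 ± 131, SD, n = 5, or 93.5 ± 32.3 without mouse 2). The arms overlapped. These counts follow from the share and the depth that chose the clones, so they were not tested between arms. From 5 to 17 clones per tumor held at least 1%. At the threshold, the smallest member of a tumor held 0.1004–0.1239% and the largest rearrangement left out held 0.0672–0.0991%.

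Together the large clones held more than 50% of the endogenous templates in every tumor. Their summed share was 63.4%, 68.1%, 66.6%, 55.7% and 65.1% in mRBC-CTRL (63.8 ± 4.83%, SD, n = 5). It was 68.2%, 82.2%, 69.9%, 84.6% and 63.0% in 2.5E8 (73.6 ± 9.33%, SD, n = 5) and 73.3%, 100%, 79.9%, 68.5% and 69.7% in 1E9 (78.3 ± 12.9%, SD, n = 5). Every 1E9 tumor lay above every mRBC-CTRL tumor, whereas the 2.5E8 tumors overlapped both. The 1E9 mean was 14.5 percentage points above mRBC-CTRL, or 9.05 points without 1E9 mouse 2, whose 100% follows from its depth. This is a description and not a test, since the summed share is made of the values that chose the clones and the templates needed for 0.1% differed between the arms. With the tumors thinned to 2589 templates each and 1E9 mouse 2 left out, the difference was 6.85 points. It was 1.72 points at a 0.5% threshold and -2.66 points with all in-frame templates as denominator. The 2.5E8 mean was 9.80 points above mRBC-CTRL, and the 1E9 mean was 4.69 points above 2.5E8, or -0.748 points without 1E9 mouse 2.

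**Figure D1:**
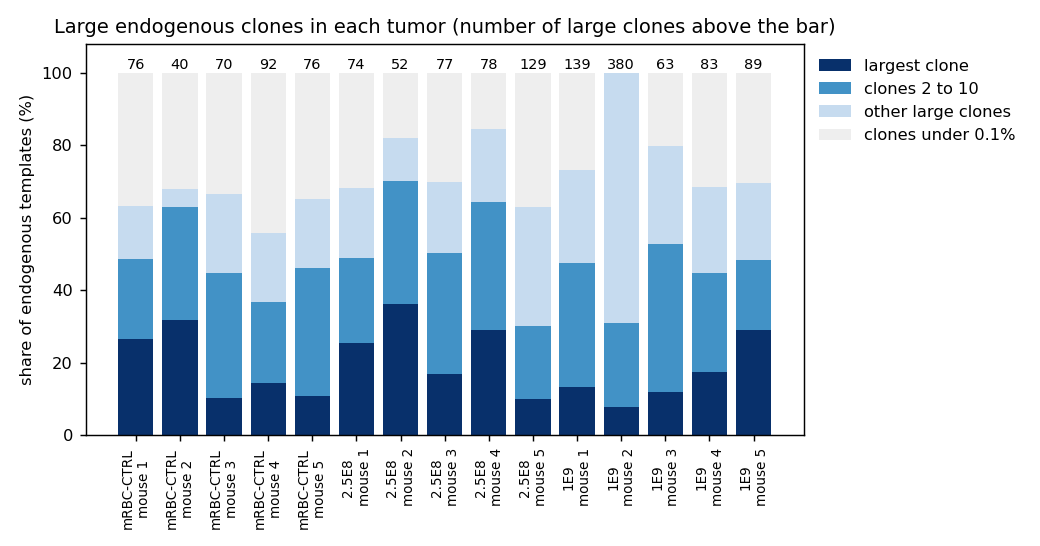
Stacked bars of the share of endogenous templates (percent) held in each tumor by the largest clone, clones 2 to 10, the other large clones and clones under 0.1%, with the number of large clones above each bar. The large clones of the 1E9 tumors sum to 68.5% to 100%, above the mRBC-CTRL tumors at 55.7% to 68.1%, and the largest clone of a tumor ranges from 7.81% to 36.3%.

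A single clone could hold a large part of the endogenous repertoire. The largest clone held 26.7%, 31.9%, 10.3%, 14.4% and 10.8% in mRBC-CTRL (18.8 ± 9.85%, SD, n = 5). It held 25.4%, 36.3%, 16.8%, 29.2% and 9.90% in 2.5E8 (23.5 ± 10.3%, SD, n = 5) and 13.4%, 7.81%, 11.9%, 17.4% and 29.2% in 1E9 (15.9 ± 8.17%, SD, n = 5). The 3 ranges overlapped. The largest share of all belonged to the TCRBV19 and TCRBJ02-07 clone of 2.5E8 mouse 2 (3250 of 8963 templates, 95% Wilson interval 35.3–37.3%). The lowest belonged to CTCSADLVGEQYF in 1E9 mouse 2, 65 of 832 templates (Wilson 6.18–9.84%). These intervals cover counting error only, since templates are estimated after PCR.

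The largest clones of the mRBC-CTRL tumors used TCRBV12-02, TCRBV16 (in mice 2 and 3), TCRBV05 and TCRBV31. Those of the 2.5E8 tumors used TCRBV19 in mice 1, 2 and 5, TCRBV29 in mouse 3 and TCRBV17 in mouse 4. Those of the 1E9 tumors used TCRBV13-03, TCRBV01, TCRBV02, TCRBV05 and TCRBV19. None of these 15 rearrangements was a member in a tumor of another mouse apart from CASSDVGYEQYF of 1E9 mouse 1, which was in 1E9 mouse 2 at 3 templates.

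Large tumor clones were found in blood far more often at day 7 than at day 0 of the same mouse. Over the 13 mice with both libraries, a mean of 10.2% of a mouse's members had at least 1 template at day 0 and 48.3% at day 7. Day 7 was higher in 13 of 13 mice, by a mean of 38.1 points (2-sided exact sign-flip permutation test, p = 0.000244, the smallest these mice allow). Without 1E9 mouse 2 the means were 10.9% and 51.6%, and the difference was 40.6 points in 12 mice. With both bloods of a mouse thinned to the same depth the means were 7.41% and 46.4%. By mouse, the day 7 values were 55.0%, 44.3%, 43.5% and 46.1% in mRBC-CTRL mice 2 to 5, and 55.4%, 67.3%, 55.8%, 32.1% and 35.7% in 2.5E8. In 1E9 they were 36.7%, 8.68%, 87.3%, 65.1% and 31.5%. The lowest was mouse 2, whose members include clones of 1 template. The day 7 blood of 1E9 mouse 5 was the shallowest, at 482 endogenous templates.

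Detection was particular to the animal. The members of a mouse were found at 0 to 0.987% in the day 7 blood of the other mice of its arm, taken as a mean over those mice. Detection in its own blood was higher by a mean of 47.1 points in 14 of 14 mice (2-sided exact sign-flip permutation test, p = 0.000122, the smallest possible), or by 50.2 points in 13 mice without 1E9 mouse 2. Outside 1E9 mouse 2, 92.7% of members had a nucleotide sequence found in no other tumor. A low level in other mice could thus be foreseen, and it largely set the direction of this test. Tumor rearrangements under 0.1% were found less often, at 0.369–4.99% at day 0 and 1.62–11.9% at day 7, a description because a clone's size set which side of the threshold it fell on. Among members outside 1E9 mouse 2, 141 of 524 clones of 0.1–0.2% were seen at day 7 (26.9%), against 140 of 155 clones of at least 1% (90.3%). The arms overlapped in this percentage, and their differences of -1.36, 2.05 and -3.41 points (1E9 and 2.5E8 against mRBC-CTRL, and 1E9 against 2.5E8) did not pass the exact permutation test (adjusted p = 0.937 for each). Without 1E9 mouse 2 the 1E9 mean was 7.92 points above mRBC-CTRL and 5.87 points above 2.5E8 (exact adjusted p = 0.825 for both). The smallest member of a tumor had 12 to 24 templates in mRBC-CTRL and 1 to 5 in 1E9, so the members of the arms were not of the same size in templates. Requiring at least 10 tumor templates removed no mRBC-CTRL member but kept only the larger clones of 1E9. The 1E9 mean was then 30.6 points above mRBC-CTRL and 20.5 points above 2.5E8. Both differences passed the exact permutation test (adjusted p = 0.0357 for each), but they compare unlike size classes.

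The summed share of the large clones in the endogenous blood repertoire was 0.0995–1.22% at day 0 in all mice. At day 7 it was 3.18%, 4.64%, 3.66% and 6.30% in mRBC-CTRL mice 2 to 5, 13.5%, 19.5%, 15.4%, 14.9% and 8.16% in 2.5E8 and 12.1%, 20.9%, 27.8%, 21.7% and 26.8% in 1E9. Every 2.5E8 and 1E9 mouse lay above every mRBC-CTRL mouse. Day 7 exceeded day 0 in 13 of 13 mice, by a mean of 13.9 points (2-sided exact sign-flip permutation test, p = 0.000244).

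The rise from day 0 to day 7 differed between the arms on this scale. It was 4.12 ± 1.55 points in mRBC-CTRL (SD, n = 4), 13.9 ± 4.08 in 2.5E8 (n = 5) and 23.8 ± 3.93 in 1E9 (n = 4, or 24.9 ± 3.88 without mouse 2). The 1E9 rise was larger than that of mRBC-CTRL by 19.6 points (exact permutation, adjusted p = 0.0286) and than that of 2.5E8 by 9.89 points (exact adjusted p = 0.0238). The 2.5E8 rise was larger than that of mRBC-CTRL by 9.75 points (exact adjusted p = 0.0238). Without 1E9 mouse 2 the 1E9 excess was 20.8 points over mRBC-CTRL and 11.1 points over 2.5E8 (exact adjusted p = 0.0286 and 0.0268). Tumor rearrangements under 0.1% also held more of the blood at day 7. Their mean summed share was 1.05% at day 0 (n = 5) and 2.17% at day 7 (n = 4) in mRBC-CTRL. It was 0.832% and 3.05% in 2.5E8 (n = 5), and 0.313% (n = 3) and 4.17% (n = 4) in 1E9. These values were not tested.

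The endogenous share of day 7 blood was lower in the 1E9 arm and sets this scale. At day 7 endogenous templates were 92.4–97.8% of in-frame blood templates in mRBC-CTRL and 92.3–96.9% in 2.5E8, but 20.5–51.9% in 1E9. In percent of all in-frame templates, the members held 4.30 ± 1.39% in mRBC-CTRL, 13.6 ± 4.06% in 2.5E8 and 7.91 ± 3.40% in 1E9 at day 7 (SD). With all in-frame templates as the denominator throughout, for choosing members and for blood shares alike, the differences in rise were 3.34 points for 1E9 against mRBC-CTRL, 8.52 points for 2.5E8 against mRBC-CTRL and -5.18 points for 1E9 against 2.5E8. None of these passed (exact adjusted p = 0.114, 0.0714 and 0.114). The 1E9 excess over 2.5E8 also missed the test at a 0.5% threshold (6.74 points, exact adjusted p = 0.0556). It missed it again when members needed at least 10 tumor templates (6.82 points, exact adjusted p = 0.119).

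**Figure D2:**
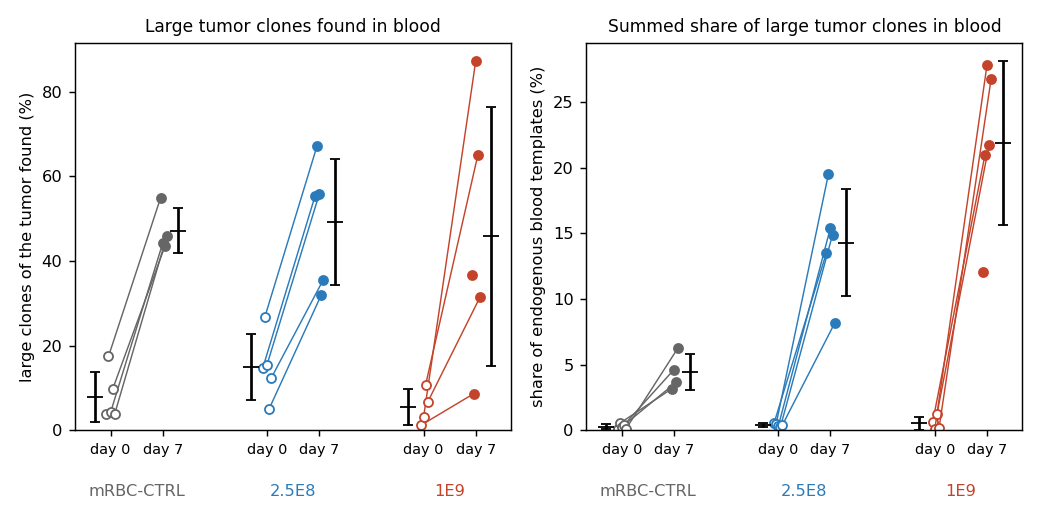
Detection of a mouse's large tumor clones in its own blood (percent of members with at least 1 template) and their summed share of endogenous blood templates (percent) at days 0 and 7, with points for mice, lines joining the samples of 1 mouse and bars for the mean ± SD of an arm. All 13 mice with both samples rise in both measures, and the day 7 summed shares of mRBC-CTRL (3.18% to 6.30%) lie below those of the other arms (8.16% to 27.8%).

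The clones that led the tumor also led the blood. The largest clone of a tumor was present in that mouse's day 7 blood in 14 of 14 mice, ranked first among endogenous blood clones in 8 and was in the top 10 in 13. The exception, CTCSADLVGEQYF of 1E9 mouse 2, ranked 66, with 2 templates. The same clones were present at day 0 in 5 of 14 mice. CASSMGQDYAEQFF of 1E9 mouse 5 rose from 0 templates at day 0 to 66 of 482 at day 7 (13.7%, Wilson 10.9–17.1%), the largest blood share of any member. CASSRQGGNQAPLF of 2.5E8 mouse 4 rose from 0 to 266 templates (9.05%, Wilson 8.07–10.1%), and the largest clone of 2.5E8 mouse 2 (TCRBV19 with TCRBJ02-07) rose from 22 to 336 templates (0.119% to 6.86%). Among the mRBC-CTRL mice the highest blood share of a largest clone was 1.37%, for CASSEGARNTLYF of mouse 4 (1 template at day 0 and 147 at day 7). Taking 3 templates of a library's endogenous total as the limit, a count of 0 at day 0 allows a share of up to 0.0162–0.114%, depending on the library.

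In 1E9 mouse 2 other members led the blood. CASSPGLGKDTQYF (TCRBV04) had 13 tumor templates and 97 blood templates at day 7 (6.08%), after 0 at day 0. A second member (TCRBV02 with TCRBJ02-07) had 31 tumor templates and went from 21 to 80 blood templates (5.02% at day 7).

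Each clone was tested between the day 7 and day 0 blood of its mouse (2-sided Fisher's exact test on templates, Benjamini-Hochberg within the mouse, at least 5 templates in the 2 libraries together). Of all 479 endogenous clones tested in 13 mice, 262 were higher at day 7 (54.7%) and 13 were lower (2.71%). Of the 1303 members in these mice 248 had enough templates to be tested, 192 of these rose (77.4%) and 1 fell. Without 1E9 mouse 2, 180 members and 248 clones in all rose. Clones outside the members rose in 70 of 231 cases (30.3%), and 35 of those 70 were present in the tumor below 0.1%. These tests compare 2 libraries of 1 mouse, not the arms, and cover counting error only. The 5 templates could come from day 7 alone, so the minimum favours clones that rose. The percentages that rose are therefore a description. By arm, 29 of 60 members tested rose in mRBC-CTRL, against 32.1% of all clones tested there. The counts were 87 of 97 in 2.5E8 (background 61.2%) and 76 of 91 in 1E9 (background 61.0%). The difference between arms in these counts was not tested.

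Of the 192 clones that rose, 154 had no template at day 0 and so met the template minimum through day 7 alone. The 1 that fell was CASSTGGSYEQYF (TCRBV19) of 2.5E8 mouse 1, from 25 to 3 templates. The 12 largest clones with both bloods and enough templates all rose (Fisher's exact test, adjusted p from 6.83e-04 to 1.78e-198). Among the 10 most abundant endogenous clones of day 7 blood, ties broken by sequence, members were 33 of 40 in mRBC-CTRL, 46 of 50 in 2.5E8 and 43 of 50 in 1E9. In day 0 blood they were 4 of 50, 10 of 50 and 4 of 40. Across members found in day 7 blood, tumor and blood shares had Spearman's rho of 0.358 to 0.822 over 13 mice, 1E9 mouse 2 left out (median 0.542). This is a description over clones that share both libraries.

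**Figure D3:**
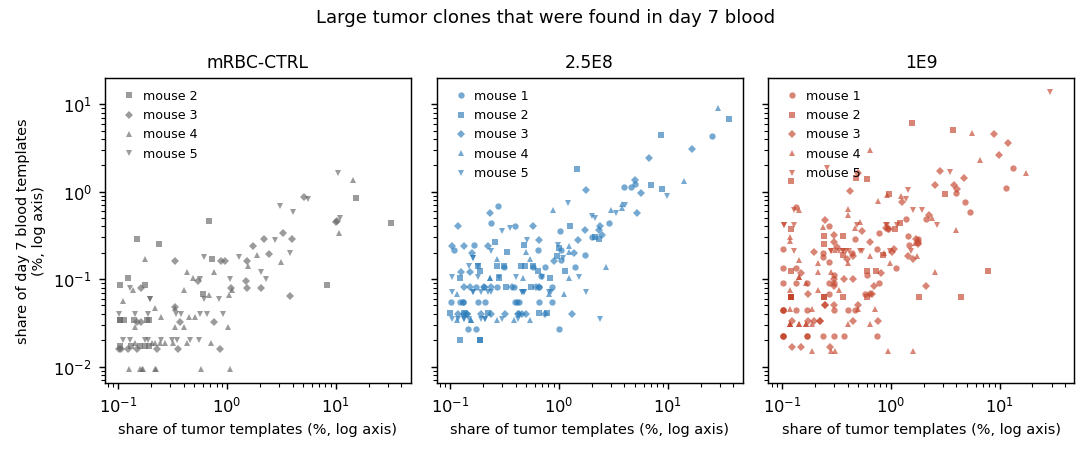
Share of each large clone in the tumor against its share in the day 7 blood of the same mouse, in percent of endogenous templates on log axes, by arm, with a symbol for each mouse and clones not found in blood left out. Larger tumor clones tend to hold larger blood shares, with rho from 0.358 to 0.822 within mice, and the largest blood share is 13.7%.

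V and J use was compared with the remaining endogenous rearrangements of the same tumor, each rearrangement counted once, over the 14 tumors that have both kinds. In these tumors the families with the most members were TCRBV13 (254), TCRBV19 (120) and TCRBV12 (107), and with 1E9 mouse 2 the counts were 351, 142 and 155. Of 12 J segments tested, 5 differed (41.7%). Of 17 V families, 2 did (11.8%).

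TCRBJ02-07 had the largest difference of the J segments. It was used by 34.8% of members and 20.6% of the other rearrangements, higher among members in 14 of 14 tumors (2-sided exact sign-flip permutation test, adjusted p = 0.000488). The tumor values did not overlap, at 23.4–45.0% against 17.6–22.8%. TCRBJ01-05 was used by 6.60% against 3.44% (higher in 13 of 14, adjusted p = 0.000879, exact). Members used TCRBJ01-01 less (3.95% against 9.75%, lower in 14 of 14, exact adjusted p = 0.000488), as they did TCRBJ02-04 (4.34% against 7.93%, 14 of 14, exact adjusted p = 0.000488) and TCRBJ02-05 (6.00% against 11.6%, 13 of 14, exact adjusted p = 0.000732). The next most used J segments among members, TCRBJ02-01 (10.2% against 12.2%) and TCRBJ01-02 (7.67% against 5.79%), did not pass (exact adjusted p = 0.145 and 0.0563). Weighted by templates, the TCRBJ02-07 excess was 3.70 points and did not pass (exact adjusted p = 0.782). By templates TCRBJ01-05 and TCRBJ02-04 also missed the test (0.217 and 0.822). TCRBJ01-05 and TCRBJ02-05 missed it at a 0.5% threshold (0.110 and 0.137) and over all in-frame templates (0.157 and 0.0663), all exact adjusted p. TCRBJ01-01 passed in every setting tried.

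The V families moved less. TCRBV12 was used by 9.49% of members and 12.6% of the others, and TCRBV16 (Tcrb-V11) by 3.39% and 5.15% (exact adjusted p = 0.0332 for each). Both calls were lost when any of 7 tumors (mRBC-CTRL 4 and 5, 2.5E8 3 and 5, 1E9 1, 3 and 5) was left out, and that of TCRBV16 also without mRBC-CTRL 3, at adjusted p of 0.0581 to 0.0664. Against the day 0 blood of the same mouse, TCRBV12 was higher among members by 2.56 points (exact adjusted p = 0.0325), so its direction depends on the comparator. TCRBV19 was used by 10.5% of members and 7.29% of the others, higher in 11 of 14 tumors, and missed the threshold (exact adjusted p = 0.0588). It passed at a 0.5% threshold (6.60 points, exact adjusted p = 0.0417) and by templates (13.8 points, 0.0154). TCRBV13, at 21.6% against 24.3%, did not pass (exact adjusted p = 0.155), but by templates it was lower among members by a difference of -11.2 points (exact adjusted p = 0.00415).

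**Figure D4:**
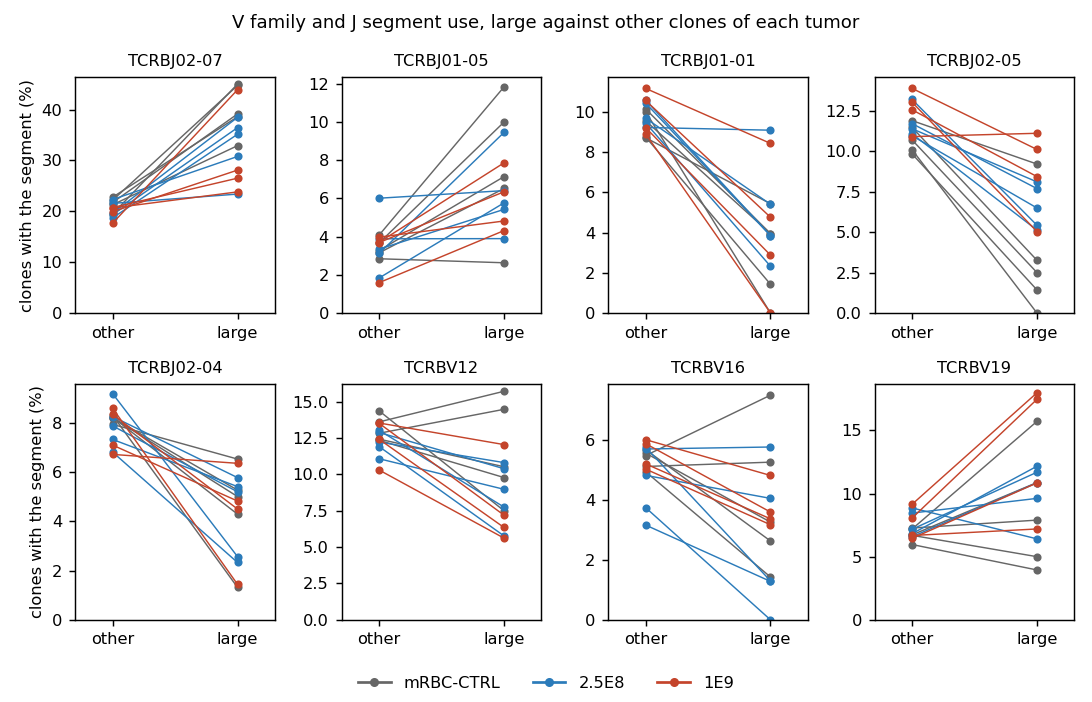
Use of 5 J segments and 3 V families by large clones and by the other endogenous rearrangements of the same tumors, in percent of rearrangements, with a line joining the 2 values of each of 14 tumors. TCRBJ02-07 stands at 34.8% of members against 20.6% of the others, while TCRBJ01-01 stands at 3.95% against 9.75%.

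Large clones had shorter junctions than the other rearrangements of their tumor. Mean CDR3 length was 41.3 ± 0.417 against 42.1 ± 0.132 bases (SD over 14 tumors), shorter in 14 of 14 (2-sided exact sign-flip permutation test, adjusted p = 0.000183, adjusted over 3 features). Members had 3.32 added bases at the joints against 3.63, fewer in 12 of 14 tumors (exact adjusted p = 0.00146). Compared within the same J segment the differences were -0.528 and -0.350 bases (exact adjusted p = 0.000183 and 0.000366). Compared with the day 0 blood of the same mouse they were -0.266 and -0.0407 bases, and neither passed (exact adjusted p = 0.0562 and 0.562).

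Most large clones were found in 1 tumor, though less often than the other rearrangements. Without 1E9 mouse 2, 1055 of 1138 had a nucleotide sequence found in no other tumor (92.7%, against 97.9% of the 26799 other rearrangements), and 835 had a CDR3 protein sequence found in no other tumor (73.4% against 84.3%). Taken by tumor, members were shared by nucleotide sequence with another tumor more often than the remaining rearrangements, at 7.27% against 2.36% and in 14 of 14 tumors (2-sided exact sign-flip permutation test, adjusted p = 0.000183). Without the tumor of 1E9 mouse 2 in any role the values were 6.86% and 2.30%. Counting tumors of other arms alone they were 4.08% and 1.54%, higher in 13 of 14. Of these 1138 members, 87 (7.64%) were also in blood of the 12 mice of a separate challenge experiment, as were 6.33% of the other rearrangements, a difference that was not tested. Of those mice, 7 had been cured of EG7.OVA with OT-1 cells and the 2.5e+08 dose and were challenged with EG7.OVA and then EL4, and 5 were naive mice that received OT-1 cells before a first EG7.OVA challenge.

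The shared rearrangements ranged from simple to complex. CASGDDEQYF (TCRBV13-02, TCRBJ02-07), a member in mRBC-CTRL mouse 3 (0.140%) and 1E9 mouse 1 (0.134%), had no base between its V and J parts and occurred in 5 of the challenge mice. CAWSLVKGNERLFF had 6 added bases and was a member in 1E9 mice 1 and 2 (160 and 1 tumor templates). The largest clone of 1E9 mouse 1, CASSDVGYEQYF (398 templates), had 3 templates in mouse 2. These are shown because the first is the kind of junction that arises readily and the other lines are from the pair of libraries that stood apart.
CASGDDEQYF: tgtgccagcggtgatgatgaacagtac
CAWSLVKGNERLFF: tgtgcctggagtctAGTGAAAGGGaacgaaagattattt
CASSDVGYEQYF: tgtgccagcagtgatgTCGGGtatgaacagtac

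Apart from that pair, 5 rearrangements were members in 2 tumors, and no rearrangement was a member in more than 2. At the protein level 46 CDR3s were members in at least 2 mice and 7 in at least 3. For 42 of the 46 there were at least as many nucleotide sequences as mice, and 39 used a single V segment. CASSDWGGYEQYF (TCRBV13-03, Tcrb-V8.1, with TCRBJ02-07) was a member in 3 mice by 3 different rearrangements, at 2.78% in mRBC-CTRL mouse 5, 0.461% in 2.5E8 mouse 5 and 0.103% in 2.5E8 mouse 3. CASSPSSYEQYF was a member in 3 mice of the 2.5E8 arm with TCRBV03, highest at 2.70% in mouse 4, which held it by 2 rearrangements. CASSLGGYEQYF was a member in the same number of 2.5E8 mice with TCRBV12-02, TCRBV16 or TCRBV03, at 0.116% to 0.624%.

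A group of TCRBV19 clones with CDR3s that begin CASSIG or CASSMG was picked out after the values were seen and is described without a test. In 14 tumors it held 37 of 120 TCRBV19 members (30.8%) and 260 of the 1865 other TCRBV19 rearrangements (13.9%). Members of it occurred in 12 of 14 tumors, and it included the largest clone in 4. Its summed tumor share had a median of 0.216% in mRBC-CTRL (0 to 3.44%), 14.8% in 2.5E8 (1.22 to 37.1%) and 6.50% in 1E9 (0 to 37.1%, n = 4). The arms overlapped. All endogenous clones of this group together held 0.610–1.19% of day 0 blood. At day 7 they held 0.946–1.02% in mRBC-CTRL, 1.45–7.80% in 2.5E8 and 0.714–16.6% in 1E9. The CDR3 protein sequence of the largest clone of 2.5E8 mouse 2 (36.3%) was also a member in 1E9 mouse 5 (3.49%), by another nucleotide sequence of the same V and J segments.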

How the data were processed

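Genomic DNA from 15 tumors and 28 blood samples was assayed for TCRβ by immunoSEQ, and 38 blood libraries of a challenge experiment (7 cured and 5 naive mice) served only for sharing. The deposited tables list, per rearrangement, template counts, which the authors' provider estimated from reads, and the deposited fraction of each library, which was not used for shares. The genome build is not given in the sources used here. In-frame counts were summed after removing 2 CDR3s, and rearrangements at 0.1% or more were taken. The members and lists were chosen with earlier results of these data known. Arms were compared over mice by 2-sided exact permutation tests, samples of a mouse by exact sign-flip tests and clones by Fisher's exact test with Benjamini-Hochberg adjustment at 0.05 (scipy 1.17.1 and numpy 2.4.6 under Python 3.11.15, with tables in pandas 2.3.3 and plots in matplotlib 3.10.9). The number and summed share of members use the values that chose them, so their arm differences are given without a test. V families and J segments under a mean of 1% were not tested. The clones named were the largest of each tumor, the 5 with the largest day 7 blood share, and members shared between mice (up to 10 rearrangements and 5 CDR3s), and the segments named were those past the threshold and the 3 V families and 3 J segments with most members, with additions identified in the text. Thinned values are means of 100 draws. The tests were checked on simulated data. Day 0 and day 7 blood held 2621–18519 and 482–10699 endogenous templates, and 95% Wilson intervals of the summed tumor share were 0.460–3.18 points wide. Counting errors alone enter these intervals. Labels do not say whether mice of an arm shared a cage or batch. One rearrangement is not reported here.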

Additional observations from a re-analysis of the deposited data

Results flagged for a closer look

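In 2 of 27 groups of mice a value stood far from the rest of its group. Both values are counts made from the tumor shares that chose the clones. They are therefore a description, and no chance rate is set against them. The tumor of 1E9 mouse 2 had 380 members, against 63 to 139 in the rest of its arm, at 832 endogenous templates. At that depth a single template made a clone a member, so this count follows from the depth. The tumor of 1E9 mouse 3 had 17 clones of at least 1%, against 11 or 12 in the rest of its arm.

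The change of the members' summed blood share from day 0 to day 7 differed between arms by the exact permutation test: by 19.6 points between 1E9 and mRBC-CTRL, by 9.75 points between 2.5E8 and mRBC-CTRL and by 9.89 points between 1E9 and 2.5E8. The denominator moved in 1E9, where endogenous templates were 20.5–51.9% of in-frame day 7 blood templates. They were 92.3–96.9% in 2.5E8 and 92.4–97.8% in mRBC-CTRL. With all in-frame templates used for choosing members as well as for blood shares, none of the 3 differences passed. The members as first chosen held 2.94–6.14% of in-frame day 7 templates in mRBC-CTRL, 7.55–18.9% in 2.5E8 and 4.12–11.6% in 1E9, values that were not tested.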

How the results depend on the processing

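Differences are percentage points unless stated, for 1E9 against mRBC-CTRL (A), 2.5E8 against mRBC-CTRL (B) and 1E9 against 2.5E8 (C). Requiring 10 templates in the tumor gave -38.0 (A), -7.80 (B) and -30.2 (C) for the number of members, -5.61 (A) and -12.8 (C) for the summed tumor share, 30.6 (A) and 20.5 (C) for detection in day 7 blood and 6.82 (C) for the change in blood. Thinning all tumors to 832 templates gave -34.8 (A) and -66.6 (B) members and made every clone a member, so that the summed share was 100% throughout and was not compared. All in-frame templates as denominator gave -11.6 members (C), summed shares of -2.66 (A) and -19.5 (C), detection of 7.43 (A), -5.11 (B) and 12.5 (C), and changes of 3.34 (A), 8.52 (B) and -5.18 (C). A 0.5% threshold gave summed shares of 1.72 (A) and -6.12 (C), detection of 2.45 (A) and a change of 6.74 (C). Thinning day 7 blood to 482 templates gave detection of 11.4 (A) and 1.90 (C). Thinning the tumors to 2589 templates without 1E9 mouse 2, chosen after seeing the data like the comparison within J segments and the 2 other counts of sharing, gave summed shares of 6.85 (A) and -1.57 (C). V families called numbered 4 at 0.5% and 6 by templates, and J segments 3 at 0.5%, over all in-frame templates and by templates. Against day 0 blood the CDR3 length and added-base differences were -0.266 and -0.0407 bases and TCRBV12 was 2.56. TCRBV16 was 0.863 by templates, and TCRBJ02-01 was 0.141 (0.5%), 0.382 (all in-frame), 3.30 (by templates) and 0.741 (day 0 blood). Requiring 10 templates in the 2 bloods together left 187 single clones tested, of which 169 were higher at day 7 (90.4%). Of the members tested, 143 of 150 were higher (95.3%), against 70.3% of the other clones. The causes were not tested. No member lay within 1 base of a removed rearrangement, so leaving out near variants among the members changed nothing. Near variants among the other rearrangements were not left out, and their part in the comparisons with members was not tested.

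Mouse numbers name different animals in each arm and correlations of their deviations ran from -0.941 to 0.815, so they do not pair the arms. With the number as a replicate block the summed share was 14.5 (A), detection 0.923 (A) and the change 19.6 (A), 9.99 (B) and 9.65 (C), with no adjusted p under 0.05 for the change (exact 0.125 for each). A blocked test of 4 pairs cannot go below 0.125.

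Leaving out 1 mouse at a time gave 22.7 to 102 (A), -0.55 to 18.7 (B) and 11.5 to 90.8 (C) members, summed shares of 9.05 to 16.9, 7.05 to 12.4 and -0.748 to 7.43, detection of -11.7 to 7.92, -2.46 to 6.35 and -13.8 to 5.87, and changes of 18.3 to 20.8, 8.48 to 11.3 and 8.36 to 11.2. Numbers of members and summed tumor shares are given here without a test. V families called ranged from 0 to 3 and J segments from 5 to 7. All 3 calls on blood at day 7 against day 0 and own against other blood, and those on CDR3 length, added bases and sharing, kept their direction and call in each of these.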
